A study of Mus musculus with 10 samples.

Results

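Calpains are regulatory proteases of the cytosol that make limited cleavages, and cathepsins are proteases of the lysosome. The 10 genes described here were taken by symbol from the 53974 genes of a TPM table with 6 RNA-seq libraries: the calpain subunits *Capn1*, *Capn2* and *Capns1*, and the cathepsins *Ctsb*, *Ctsc*, *Ctsd*, *Ctsh*, *Ctsl*, *Ctss* and *Ctsz*. From the 16600 regions of the ATAC-seq comparison, which maps accessible chromatin with a transposase, 6 lay within 1000 bp of an end of these genes, and all 10 genes reached the minimum set here, 1 TPM in 3 or more libraries. The mice were *Arid1a* fl/fl on the C57BL/6 strain, aged 8 to 10 weeks per the labels. They received AAV2-GFP (WT, labelled *Arid1a* fl/fl) or AAV2-Cre (cKO, labelled *Arid1a* del/del) in the vitreous 2 weeks before optic nerve crush (ONC), and Thy1.2-positive retinal cells were sorted 3 days after ONC. Both groups were thus injured and carried AAV2, and no uninjured group was analysed here. The paper gives a higher titer for AAV2-GFP than for AAV2-Cre. Transgene and titer thus differ between the groups and cannot be told apart from *Arid1a* deletion. The CMV promoter that drove GFP and Cre is not restricted to retinal ganglion cells (RGCs), and several retinas were pooled in each sample. RNA-seq covered 3 WT and 3 cKO libraries, and ATAC-seq covered 2 of each.

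Calpains are calcium-dependent cysteine proteases of the cytosol. *Capn1* and *Capn2* encode the large catalytic subunits of the micromolar and millimolar calpains, *Capns1* encodes the small subunit that both need, and injury-induced calcium entry into axons is known to activate them, with spectrin and neurofilaments among their substrates. Cathepsins are lysosomal proteases that are made as inactive precursors and matured at acidic pH. *Ctsd* encodes an aspartic protease, and the other cathepsins in the set are papain-like cysteine proteases, of which *Ctss* is typical of antigen-presenting cells and *Ctsc* activates granule serine proteases of leukocytes.

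Some properties of the libraries bear on every RNA value below. *Arid1a*, the targeted gene, was at 18.8, 11.7 and 14.1 TPM in the WT libraries and at 18.8, 27.9 and 25 TPM in the libraries labelled cKO. Its RNA was thus not lower in the libraries labelled cKO (log2 fold change 0.66, SE 0.28, adjusted p = 0.274 from limma), and RNA directions are given by label. Of 10 RGC markers, 7 passed the filter, and *Pou4f2* was listed at 0 in all WT libraries. The markers, led by *Thy1* and *Isl1*, summed to 139 to 194 TPM in WT and 214 to 239 TPM in cKO. Single RGC markers did not share a direction: 3 of the 7 were lower and 4 higher, and their median change on the log2 scale was 0.02. The 7 rod markers used here summed to 4307 to 6557 TPM in WT and 9919 to 18079 TPM in cKO, with 7 of 7 higher without overlap. Cone markers summed to 1757 to 2404 TPM in WT and 3158 to 5843 TPM in cKO, so the sorted cells held much RNA of other retinal cells. Myeloid and microglial markers, led by *Lyz2* and *C1qa*, summed to 2416 to 3913 TPM in WT and 1083 to 1507 TPM in cKO, with 13 of 14 lower in cKO. T cell markers (mouse T cells also carry Thy1.2), led by *Trac* and *Trbc2*, summed to 905 to 2759 TPM against 234 to 573 TPM, with 10 of 10 lower. In bulk samples such as these, fewer cells of a type and less RNA per cell cannot be told apart. Over all 17555 genes tested the median difference (log2, cKO minus WT) was 0.16, and 0.01 once the libraries were scaled by their median of ratios, so the members' values on that scale are given beside the others. Sequencing depth is unknown, and the p-values measure only the spread between these libraries.

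The promoters of 5 members are shown as examples. *Capns1* and *Ctsd* had the largest RNA and ATAC-seq differences of the set, and *Capn2*, *Ctsc* and *Ctss* were chosen after their values were seen. The sequences run 5′ to 3′ from 250 bases before to 50 bases after the start site in RefSeq (GRCm38.p6). Capitals mark matches, on either strand, to the E-box CACGTG, the longer CLEAR-like word TCACGTGA of lysosomal genes that contains it, the PU.1-type word GAGGAA, the ETS-type word CCGGAA, the AP-1 words TGACTCA and TGAGTCA, the GC box GGGCGG, the interferon-stimulated response element (ISRE-type word) and the TATA word TATAAA.
Capn2 (chr1:182517561-182517860, minus strand): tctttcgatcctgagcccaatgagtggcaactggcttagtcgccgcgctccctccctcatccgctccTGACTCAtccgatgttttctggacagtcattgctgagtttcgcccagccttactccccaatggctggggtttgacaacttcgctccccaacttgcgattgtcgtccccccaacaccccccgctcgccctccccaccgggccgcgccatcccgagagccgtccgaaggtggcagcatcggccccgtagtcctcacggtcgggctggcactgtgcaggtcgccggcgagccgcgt
Capns1 (chr7:30195104-30195403, minus strand): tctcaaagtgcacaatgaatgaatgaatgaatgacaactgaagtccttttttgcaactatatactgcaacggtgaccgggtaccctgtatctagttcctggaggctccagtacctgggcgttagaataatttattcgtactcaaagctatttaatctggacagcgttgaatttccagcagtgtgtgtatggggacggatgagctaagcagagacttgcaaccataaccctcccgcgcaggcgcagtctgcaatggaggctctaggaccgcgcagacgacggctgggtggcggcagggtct
Ctsc (chr7:88277835-88278134, plus strand): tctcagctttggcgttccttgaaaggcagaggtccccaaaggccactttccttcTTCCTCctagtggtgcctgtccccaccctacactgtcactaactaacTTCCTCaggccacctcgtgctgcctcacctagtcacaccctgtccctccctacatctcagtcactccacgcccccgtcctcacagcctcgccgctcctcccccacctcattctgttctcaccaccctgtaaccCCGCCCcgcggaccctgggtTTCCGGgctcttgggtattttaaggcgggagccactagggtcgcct
Ctsd (chr7:142387778-142388077, minus strand): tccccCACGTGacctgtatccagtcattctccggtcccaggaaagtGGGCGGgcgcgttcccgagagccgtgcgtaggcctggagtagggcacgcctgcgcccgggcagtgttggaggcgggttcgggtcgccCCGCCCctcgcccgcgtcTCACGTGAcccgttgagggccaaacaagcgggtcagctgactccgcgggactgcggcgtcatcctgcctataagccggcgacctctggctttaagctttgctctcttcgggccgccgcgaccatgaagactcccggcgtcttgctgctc
Ctss (chr3:95526536-95526835, plus strand): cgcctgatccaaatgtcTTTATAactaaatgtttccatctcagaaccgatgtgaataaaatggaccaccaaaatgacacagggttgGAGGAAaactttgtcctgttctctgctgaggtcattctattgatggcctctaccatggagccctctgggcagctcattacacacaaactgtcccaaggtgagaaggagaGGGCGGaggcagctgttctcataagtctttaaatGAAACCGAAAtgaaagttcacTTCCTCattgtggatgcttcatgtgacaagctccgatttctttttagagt
The *Ctsd* promoter held an E-box at -245 and another at -98, the latter inside a CLEAR-like word, counted in bases from the start site. Of 32851 RefSeq promoters of the same length, 7.15% held an E-box and 0.974% held the CLEAR-like word. *Ctsd* also had the highest GC content of the member promoters (67.3%, with 33 CpG dinucleotides, against medians of 52.7% and 7 over all promoters). At the other end, the *Ctss* promoter had a GC content of 44.0% and 5 CpG dinucleotides. It held PU.1-type words at -164 and 0 and an ISRE-type word at -21, which 28.3% and 3.44% of all promoters also held. *Ctsc* held PU.1-type words at -196 and -149 and an ETS-type word at 4 (14.9% of all promoters). *Capn2* had a GC content of 64.3% and an AP-1 word at -183 (5.20% of all promoters). The *Capns1* window, whose start site lies inside the gene, held none of the words searched. The sequence at the 5′ end of *Capns1* was not searched. GC boxes and TATA words, found in 35.7% and 13.6% of all promoters, were present in 6 and 1 of 9 member promoters. Promoters were found for 8 of the 10 members, 2 of them for *Capn1*. *Ctsb* and *Ctsh* had no entry.

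No calpain subunit passed the adjusted threshold, and the RNA of *Capn2* was lower in every cKO library than in any WT library. *Capn2* (chr1:182467253-182517610) was the more abundant catalytic subunit in every library, with 72.3, 116.5 and 78.7 TPM in WT and 43.4, 42.5 and 64.3 TPM in cKO. The highest cKO library stood below the lowest WT library, and the means were 89.2 ± 23.9 and 50.1 ± 12.3 TPM (SD, n = 3 each). On the log2(TPM + 1) scale *Capn2* was lower by a log2 fold change of -0.81 (SE 0.28, unadjusted p = 0.0220, adjusted p = 0.199 from limma), and by -0.98 after scaling. Leaving out single libraries moved it between -1 and -0.61.

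*Capn1* (chr19:5988545-6015825) was scarcely expressed. It had 1.34, 1.90 and 1.33 TPM in WT and 0.58, 0.24 and 0.43 TPM in cKO. The groups did not overlap, but *Capn1* met the minimum of 1 TPM through its WT libraries alone, so that among genes that passed in this way a difference was built in. Its mean TPM in cKO was 0.275 times that in WT, while the log2 fold change of TPM + 1 was -0.83 (SE 0.27, adjusted p = 0.183 from limma), or -0.90 after scaling. In WT, *Capn2* RNA was thus far above *Capn1* RNA, at mean levels of 89.2 and 1.53 TPM.

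The small subunit gene *Capns1* (chr7:30186934-30198883) turned on a single library. Its values were 21.2, 312.3 and 12.0 TPM in WT and 11.5, 8.53 and 13.6 TPM in cKO. WT 2 was 14.7 times the next library, and the other WT libraries and the cKO libraries lay between 8.53 and 21.2 TPM and overlapped. The log2 fold change of -1.90 (SE 1.09, adjusted p = 0.394 from limma) became -0.50 (SE 0.35, adjusted p = 0.467) without WT 2, and it was -2.06 after scaling with all libraries. The genes whose profile over the 6 libraries was most like that of *Capns1*, by the root mean square difference of centred log2(TPM + 1) values among 12671 genes with a mean of at least 5 TPM, were *Nrarp* (0.24), *Adra1d* (0.28) and *Ier5* (0.33), and all of them were highest in WT 2. That library held 85 tested genes at least 5 times above the next library, against 4 to 32 in each of the other libraries. The neighbouring gene *Cox7a1*, which ends 904 bp from *Capns1*, went the other way, with 0 TPM in WT 2 and 1.36 to 32.12 TPM in the other libraries. Whether reads were divided between neighbouring genes in WT 2 was not tested.

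**Figure D1:**
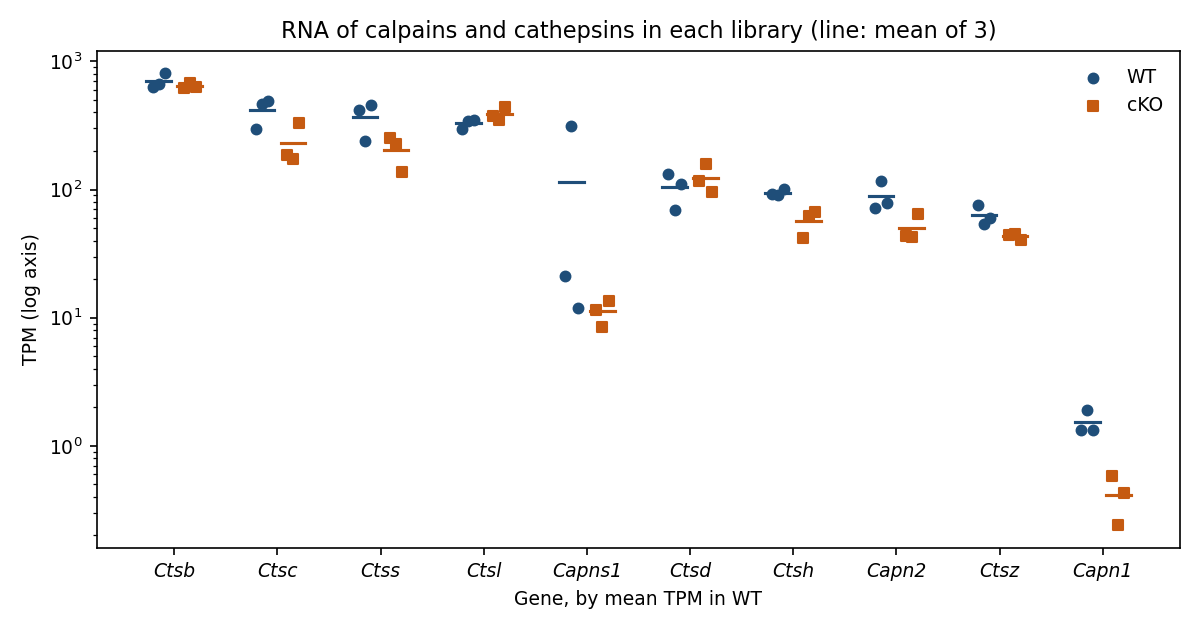
RNA of the 10 calpains and cathepsins in TPM (log axis), ordered by mean TPM in WT. Points are libraries (circles, 3 WT; squares, 3 cKO) and lines are means; the cKO points of *Capn2*, *Ctsh*, *Ctsz* and *Capn1* lie below all WT points, and 1 WT point of *Capns1* stands at 312.3 TPM.

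Among the cathepsins, the RNA of *Ctsc*, *Ctsh*, *Ctss* and *Ctsz* was lower in cKO at an unadjusted p below 0.05, while *Ctsb*, *Ctsd* and *Ctsl*, the broadly expressed lysosomal proteases, were not. None passed the adjusted threshold. The aminopeptidase gene *Ctsh* (chr9:90054267-90076095) was the steadiest of the lower genes in WT, at 91.6, 90.4 and 101.9 TPM, against 41.9, 62.0 and 66.5 TPM in cKO. All cKO libraries stood below all WT libraries, with means of 94.6 ± 6.33 and 56.8 ± 13.1 TPM (SD, n = 3 each). Its log2 fold change was -0.75 (SE 0.24, unadjusted p = 0.0161, adjusted p = 0.180 from limma), and -0.92 after scaling. An exact two-sided permutation test gave p = 0.1, the smallest that 3 against 3 libraries allow.

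*Ctsz* (chr2:174427494-174439039), a carboxypeptidase gene, had 75.9, 53.4 and 60.4 TPM in WT and 44.4, 44.8 and 40.1 TPM in cKO. The groups did not overlap, and the cKO libraries lay closer together than the WT libraries. The log2 fold change was -0.53 (SE 0.22, unadjusted p = 0.0445, adjusted p = 0.259 from limma), and -0.70 after scaling. In the limma fit blocked by replicate number, the unadjusted p was 0.0530.

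For *Ctsc* (chr7:88278024-88315861), the dipeptidyl peptidase gene, the libraries held 299.0, 462.6 and 493.0 TPM in WT and 185.4, 172.7 and 330.6 TPM in cKO. The groups overlapped, since cKO 3 exceeded WT 1. Means were 418 ± 104 and 230 ± 87.7 TPM (SD, n = 3 each), and the log2 fold change was -0.89 (SE 0.33), or -1.06 after scaling. The unadjusted p from limma was 0.0302, and 0.0134 when the fit was blocked by replicate number, with adjusted p-values of 0.223 and 0.135. The most similar profiles were those of *Cmtm6* (0.07), *Prdx6* (0.07) and *Limd1* (0.08).

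*Ctss* (chr3:95526786-95556405) had 418.7, 238.6 and 457.4 TPM in WT and 251.2, 226.8 and 136.8 TPM in cKO. WT 2 lay within the range of the cKO libraries, so the groups overlapped. The means were 372 ± 117 and 205 ± 60.2 TPM (SD, n = 3 each), with a log2 fold change of -0.85 (SE 0.35, unadjusted p = 0.0441, adjusted p = 0.258 from limma), or -1.02 after scaling. With the limma fit blocked by replicate number, the unadjusted p was 0.0539. Its profile was closest to those of *Csf2rb* (0.15), *Rps3a1* (0.17) and *Cd300lf* (0.17), of which *Csf2rb* and *Cd300lf* encode receptors of myeloid cells. For *Capn1* the closest profiles were *Med10* (0.08), *Gpsm3* (0.09) and *Xbp1* (0.12). At the low TPM of *Capn1* the pseudocount shrinks its profile. Its log2 fold change was -0.83 with a pseudocount of 1 and -1.69 with 0.1, so these matches may depend on the pseudocount.

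*Ctsb* (chr14:63122462-63145923) was the most abundant member in each group, at 632.4, 662.7 and 807.5 TPM in WT and 623.3, 680.5 and 627.4 TPM in cKO. The groups overlapped, with WT 3 alone above the cKO libraries. The log2 fold change was -0.12 (SE 0.20, adjusted p = 0.790 from limma), or -0.29 after scaling. *Ctsl* (chr13:64361890-64370772), an endopeptidase gene like *Ctsb*, had 295.9, 344.0 and 351.8 TPM in WT and 376.9, 348.2 and 438.2 TPM in cKO. Its cKO values were mostly the higher ones, with a log2 fold change of 0.23 (SE 0.20, adjusted p = 0.579 from limma) that became 0.06 after scaling. *Ctsd* (chr7:142375910-142387827) had 133.1, 69.2 and 109.9 TPM in WT and 117.3, 159.5 and 95.5 TPM in cKO. These groups overlapped too, with a log2 fold change of 0.27 (SE 0.32, adjusted p = 0.679 from limma), or 0.10 after scaling and 0.00 at the lowest when single libraries were left out.

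Read together, 8 of the 10 members had lower RNA in cKO and 2 had higher RNA, with a median log2 fold change of -0.78 beside 0.16 over all genes tested. At an adjusted p below 0.05 from limma, 0 members were called, where 0% of all genes were called lower and 0.0057% (1 gene) higher. At an unadjusted p below 0.05, 6 members were lower and 0 higher, where 6.45% of all genes were lower and 11.9% higher. The members were chosen with earlier results of these data known, and the paper names *Capn2* and *Ctsc* among genes with decreased expression. The shares of all genes are thus no like background for the member counts. In 4 members every cKO library lay below every WT library, which held for 7.18% of all genes, and in no member did the opposite hold, which was found for 18.7%. Without *Capn1*, 7 of 9 members were lower with a median of -0.75, 5 of them at an unadjusted p below 0.05 and 3 without overlap. The count at an unadjusted p below 0.05 fell whichever library was left out. It was 4 without WT 1, WT 2 or cKO 3, 3 without WT 3, 2 without cKO 1 and 1 without cKO 2. The members' median log2 fold change stayed between -0.75 and -0.62 in these fits. They also held fewer libraries, so the lower counts do not show dependence on a particular library. In a fit blocked by replicate number the count was 4, without *Ctss* and *Ctsz*. On the scaled values the members' median was -0.91. At an unadjusted p below 0.05, 6 members were then lower, where 9.54% of all genes were lower and 7.62% higher. In 6 members all cKO libraries lay below the WT libraries (*Ctsb* and *Ctsc* in addition), which held for 11.2% of all genes. Both scaled counts include *Capn1*, and without it 5 members were lower at that p.

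**Figure D2:**
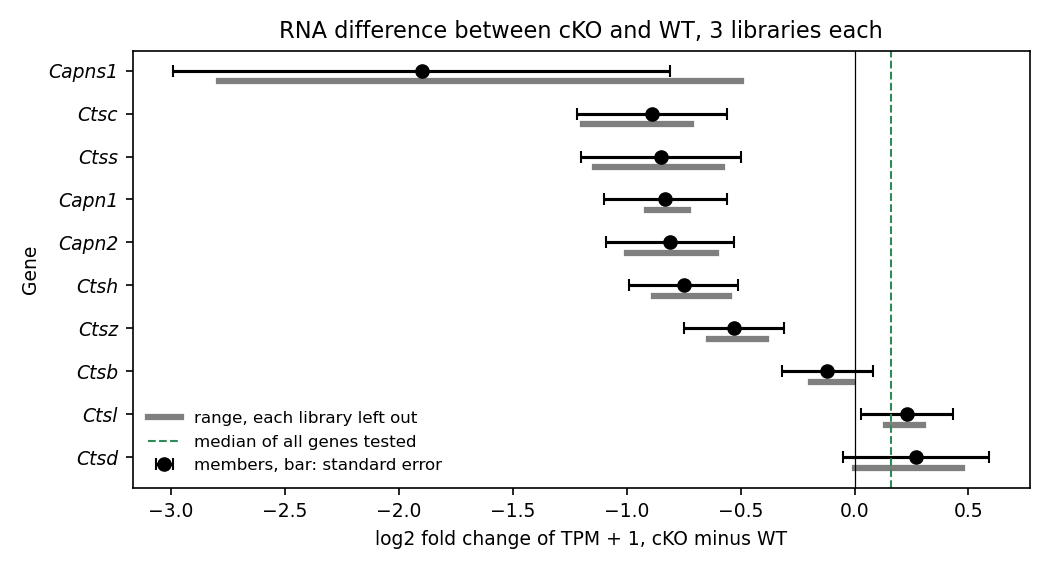
Log2 fold change of TPM + 1, cKO minus WT, for each of the 10 members (points) with its standard error (black bars), and its range over fits without 1 library (grey bars). The dashed line is the median of all genes tested, 0.16; 8 members lie left of 0, and the range of *Capns1* runs from -2.79 to -0.50.

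The order of the levels differed between the groups. TPM is scaled by transcript length, so levels may be compared between genes. In WT the mean levels ran from *Ctsb* (701 TPM) through *Ctsc* (418), *Ctss* (372) and *Ctsl* (331) to *Capns1* (115), *Ctsd* (104), *Ctsh* (94.6), *Capn2* (89.2), *Ctsz* (63.2) and *Capn1* (1.53). Only *Ctsb* against *Ctsc* and *Ctsz* against *Capn1* were neighbours whose libraries did not overlap, and the place of *Capns1* was set by WT 2. In cKO the order began with *Ctsb* (644 TPM), *Ctsl* (388), *Ctsc* (230), *Ctss* (205) and *Ctsd* (124), followed by *Ctsh* (56.8), *Capn2* (50.1), *Ctsz* (43.1), *Capns1* (11.2) and *Capn1* (0.419). There, *Ctsc* with *Ctss*, *Ctss* with *Ctsd*, *Ctsh* with *Capn2* and *Capn2* with *Ctsz* were the neighbours that overlapped. *Ctsl* thus had rank 4 in WT and rank 2 in cKO.

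The cathepsins also differed as shares of their own sum. The 7 cathepsins summed to 1921 to 2382 TPM in WT and 1641 to 1735 TPM in cKO. Within that sum *Ctsb* took 32.5, 34.5 and 33.9% in WT and 38.0, 40.2 and 36.2% in cKO. The share of *Ctsl* was 15.2, 17.9 and 14.8% in WT and 23.0, 20.6 and 25.3% in cKO. Both shares were higher in every cKO library than in any WT library, although the levels themselves overlapped. *Ctsh* took 4.28 to 4.71% in WT and 2.56 to 3.83% in cKO. For *Ctss*, at 12.4 to 21.5% in WT and 7.89 to 15.3% in cKO, the shares overlapped.

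Markers of several cell types were lower in cKO together with the lower members. Markers of Mueller glia and astrocytes, led by *Dkk3* and *Apoe*, were lower for 8 of 8 genes (median log2 fold change -0.53, 3 at an unadjusted p below 0.05). They summed to 9339, 16420 and 18462 TPM in WT and 7618, 7831 and 17445 TPM in cKO. *Dkk3* itself was nearly level, with a log2 fold change of -0.05 and means of 4184 TPM in WT and 4234 TPM in cKO. WT 1 was the lowest WT library and cKO 3 the highest cKO library in this sum, as for *Ctsc*. Myeloid markers had a median of -0.70, with 5 of 14 at an unadjusted p below 0.05, and the members were also set against their sum. Per 100 TPM of summed myeloid markers, *Ctss* RNA was 13.6, 9.88 and 11.7 TPM in WT and 16.7, 19.7 and 12.6 TPM in cKO. On this scale *Ctss* was not lower in cKO, but the sum is made up largely of a few abundant markers, with log2 fold changes of -1.80 for *Lyz2*, -1.25 for *C1qa* and -1.24 for *C1qb*. Per 100 TPM of the 10 markers other than the 4 most abundant (*Lyz2*, *C1qa*, *C1qb* and *Ptprc*), a set chosen after the values were seen, *Ctss* was at 69.3, 46.7 and 61.9 TPM in WT and 57.4, 52.3 and 47.5 TPM in cKO, so that the groups overlapped. With all 14 markers, *Ctsc* gave 9.72 to 19.1 TPM in WT and 12.3 to 30.5 TPM in cKO, and *Ctsh* gave 2.60 to 3.74 and 2.78 to 6.14 TPM. *Ctsz* was at 1.54 to 2.47 TPM in WT and 2.95 to 3.89 TPM in cKO, and *Ctsb* at 20.6 to 27.4 and 41.4 to 59.1 TPM, without overlap in either gene. The groups overlapped for *Ctsz* with the 10 markers (8.17 to 12.6 and 10.1 to 13.9 TPM) and did not for *Ctsb* (105 to 130 and 142 to 218 TPM). The part of glial, myeloid and other leukocyte RNA in the differences of the members was not tested.

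Genes that act with the members were grouped by role, and none of the listed genes passed an adjusted p of 0.05. Over all genes tested, 6.45% were lower and 11.9% higher at an unadjusted p below 0.05 from limma. Groups did not overlap in 7.18% on the lower side and 18.7% on the higher side. Of the other calpains and the inhibitor calpastatin, 6 of 13 genes were tested, 1 lower and 5 higher, with a median log2 fold change of 0.24. *Cast*, which encodes calpastatin, had 51.7, 50.7 and 66.2 TPM in WT and 40.9, 25.9 and 79.4 TPM in cKO (log2 fold change -0.34, SE 0.40), so that the groups overlapped. *Capn7* was at 18.4 to 24.1 TPM in WT and 26.9 to 47.9 TPM in cKO. Calpain substrates were evenly divided, with 7 of 14 tested genes lower and 7 higher. The dendritic microtubule protein gene *Map2* had 60.8, 81.1 and 94.1 TPM in WT and 159.4, 172.8 and 159.9 TPM in cKO (log2 fold change 1.07, SE 0.22, adjusted p = 0.124 from limma). *Mapt*, which encodes tau, also had groups that did not overlap, at 95.8 to 131.4 and 144.1 to 243.9 TPM. Only these 2 of the 14 substrates were higher without overlap, which is not above the 18.7% of all genes.

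Protease inhibitor genes (cystatins, serpins and *A2m*), not all of them inhibitors of the member cathepsins, were mostly lower. Of 9 tested genes, 7 were lower, 4 of them at an unadjusted p below 0.05 (6.45% of all genes), and the median was -0.42. Among these 4, *Cst7* was the only cystatin. *Cst7*, which encodes cystatin F of immune cells, had 40.7, 15.1 and 30.5 TPM in WT and 13.6, 4.10 and 9.61 TPM in cKO (log2 fold change -1.58, SE 0.51). Its groups did not overlap, and the same was true of *Serping1* (103.4 to 176.0 and 36.4 to 98.3 TPM) and *Serpinb1a* (2.06 to 4.24 and 0.71 to 1.61 TPM). *Cst3*, which encodes the secreted inhibitor cystatin C, overlapped widely at 45.7 to 194.8 TPM in WT and 70.8 to 265.3 TPM in cKO. *Cstb*, for cytosolic cystatin B, overlapped at 59.4 to 93.5 and 45.3 to 69.8 TPM. Of 5 further cathepsins tested, 4 were lower, with a median of -0.52.

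Genes of cathepsin activation and sorting, and those of the rest of the lysosome, had medians near 0. Of 14 genes for cathepsin activation and sorting, 8 were lower and 6 higher, with a median of -0.06. *Lgmn*, whose product legumain cleaves cathepsins, had 173.0, 197.3 and 238.7 TPM in WT and 219.9, 228.6 and 188.4 TPM in cKO. *Grn*, for progranulin, had groups that did not overlap, at 142.0 to 192.3 and 99.8 to 119.4 TPM. Of 35 genes for lysosomal membrane proteins and hydrolases, 17 were lower and 18 higher, with a median of 0.00. Those with groups that did not overlap included the macrophage protein gene *Cd68* (22.8 to 24.8 TPM in WT, 8.02 to 11.7 in cKO), *Npc2* (138.0 to 171.9 and 64.8 to 93.4) and *Acp5* (26.7 to 48.1 and 5.82 to 14.5) on the lower side. On the higher side were *Laptm4b* (340.3 to 392.2 and 600.7 to 786.1), *Asah1* (58.5 to 66.0 and 77.0 to 92.0) and *Acp2* (17.7 to 21.2 and 22.7 to 31.3). Of these 35 genes, 4 were lower and 3 higher without overlap, beside 7.18% and 18.7% of all genes.

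V-ATPase subunits, which make up the pump that acidifies the lysosome, were mostly higher. Of 18 tested genes, 15 were higher, 9 of them at an unadjusted p below 0.05, and the median was 0.63, or 0.46 after scaling. Over all genes, 11.9% were higher at that p. Groups did not overlap in 8 of the 18, beside 18.7% of all genes on the higher side. *Atp6v1b2* had 250.9, 290.1 and 238.4 TPM in WT and 575.8, 544.7 and 381.8 TPM in cKO (log2 fold change 0.93, SE 0.23, adjusted p = 0.138 from limma). *Atp6v0e2* and *Atp6v1g2*, at log2 fold changes of 0.90 and 0.93, had groups that did not overlap either. V-ATPases also fill synaptic vesicles, and summed markers of rods, cones and amacrine cells were higher in the same libraries. The part of these cells was not tested. *Tfeb*, for a transcription factor of lysosomal genes, was at 7.20, 39.8 and 14.7 TPM in WT and 2.72, 2.76 and 10.4 TPM in cKO, with an overlap at cKO 3. Among 7 tested genes of its list, which covers lysosomal transcription factors and calcium channels, the median was 0.01. The channel genes *Mcoln1* (35.6 to 41.7 TPM in WT, 50.3 to 66.9 in cKO) and *Mcoln2* (1.89 to 11 and 0.51 to 1.22) went in opposite directions without overlap.

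The immune pathways in which *Ctss* and *Ctsc* act held the lowest medians. All 9 genes of antigen loading on MHC class II, where cathepsin S cleaves the invariant chain, were lower, 7 of them at an unadjusted p below 0.05, with a median of -2.00. *H2-Ab1* had 1935.4, 1735.3 and 2188.3 TPM in WT and 554.6, 293.1 and 464.4 TPM in cKO. The libraries of the groups were far apart, and the log2 fold change was -2.20 (SE 0.29, adjusted p = 0.124 from limma). *H2-Aa* and *H2-DMb2* gave -2.14 and -2.20. The 4 tested granule proteases were lower too, with a median of -1.98. *Gzmb*, *Gzmk* and *Gzma*, the granzymes that cathepsin C matures, had log2 fold changes of -2.39, -2.15 and -1.81 with no overlap. The *Ctss* and *Ctsc* differences of -0.85 and -0.89 were thus smaller than those of most genes in these lists. The T cell markers and most myeloid markers given above were lower in cKO too. So were all 5 tested B cell markers, with a median log2 fold change of -2.01. Whether the genes of these lists followed such cells was not tested. Over all lists together, 22 of 121 tested genes (18.2%) were lower and 12 (9.92%) higher at an unadjusted p below 0.05, beside 6.45% and 11.9% of all genes. After scaling they were 27 (22.3%) and 8 (6.61%), beside 9.54% and 7.62%. The count of 12 was 6 without WT 3, 4 without cKO 1 and 5 without cKO 2.

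**Figure D3:**
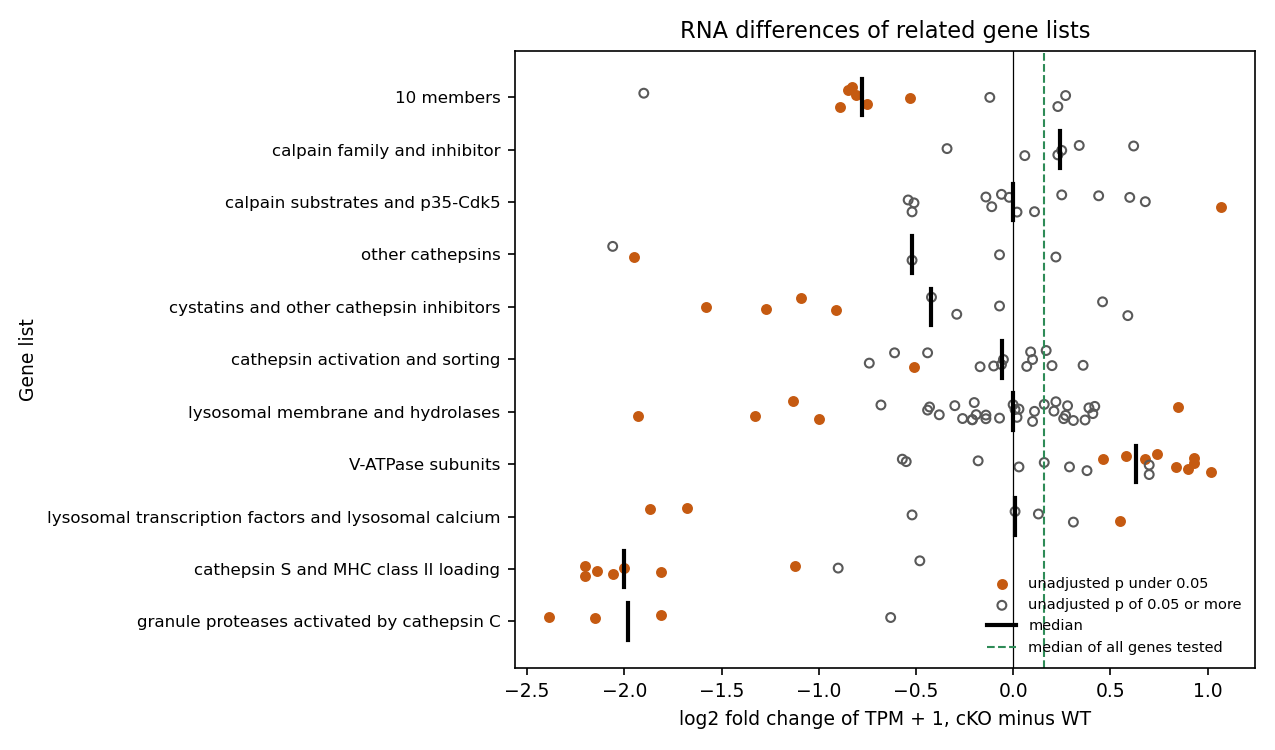
Log2 fold change of TPM + 1, cKO minus WT, of the 10 members and of each list of related genes. Points are genes (filled, unadjusted p from limma below 0.05), black bars are medians and the dashed line is the median of all genes tested; the medians run from -2.00 for MHC class II loading to 0.63 for V-ATPase subunits.

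ATAC-seq regions lay at an end of 6 of the 10 members, *Capn2*, *Ctsb*, *Ctsc*, *Ctsd*, *Ctsh* and *Ctsl*, beside 51.5% of tested genes with a position. The values are the authors' group values, the log2 of mean normalized reads over 2 libraries, which carry no spread and allow no test. At *Ctsd* the region chr7:142387539-142388137, which covers the whole promoter printed above with both of its E-boxes, had 4.71 in WT and 1.85 in cKO. This difference of -2.86 (26.2 against 3.60 mean normalized reads) was the largest of the set. The *Ctsl* region (chr13:64369820-64370655) held 5.16 in WT and 2.83 in cKO, a difference of -2.33. At *Capn2* (chr1:182516836-182517763) the values were 5.00 and 2.95, and at *Ctsc* (chr7:88277517-88278619), with its PU.1-type words, they were 4.98 and 2.99. These differences of -2.05 and -1.99 left 7.73 and 7.94 normalized reads in cKO. The regions of these 4 genes held the RefSeq start site. The region at *Ctsb* (chr14:63122375-63123264) went from 4.61 to 2.69, a difference of -1.92. *Ctsh* (chr9:90054269-90054989) was nearly level, at 3.28 in WT and 3.12 in cKO, and its region had the lowest WT value of the set.

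Set against the whole comparison, the member regions gave values near those of other regions at gene ends. All 6 were lower in cKO, and so were 95.1% of the 8002 regions at a gene end. Of the member regions 3 of 6 were lower by at least 2, against 40.8% of all regions and 67.6% of those at a gene end. Their median difference was -2.02, beside -1.57 for all regions and -2.50 for those at a gene end. Peaks in both WT libraries and in no cKO library were found in 5 of 6 member regions and in 55.1% of all regions. The share among regions at a gene end alone was not computed, so this measure has no like background.

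**Figure D4:**
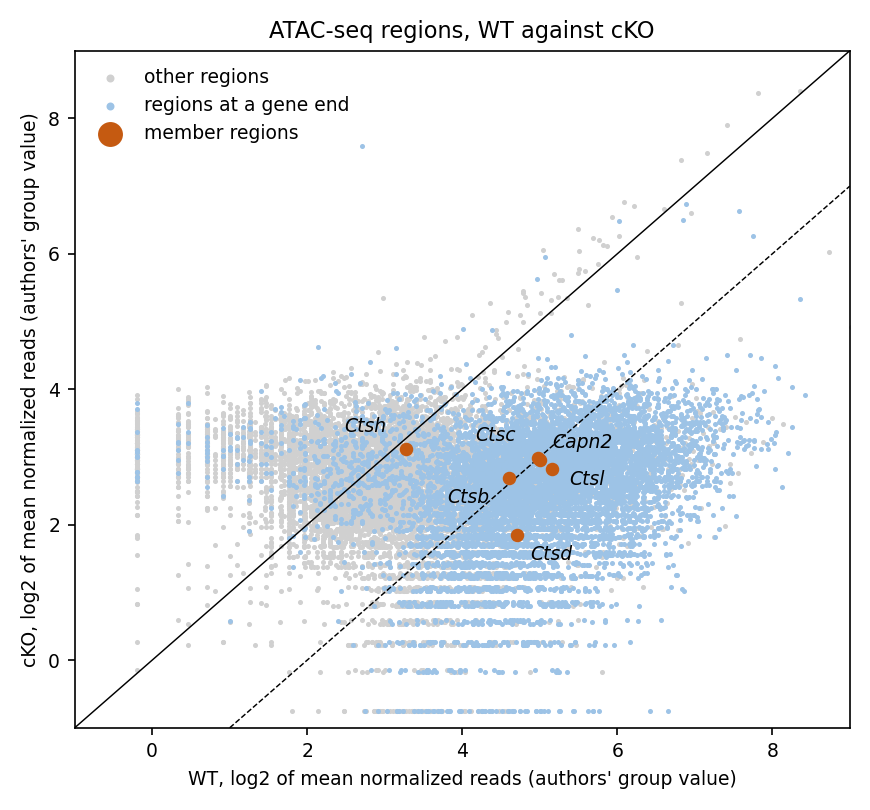
The authors' ATAC-seq group values, log2 of mean normalized reads, in WT (x axis) and cKO (y axis) for 16600 regions, with regions at a gene end in blue and the 6 member regions in orange. The solid line marks equal values and the dashed line a cKO value lower by 2; *Ctsd* lies farthest below the solid line among the members and *Ctsh* lies close to it.

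The peaks called in each library showed where the members differed. A peak lay within 1000 bp of an end of 8 members in WT 1, 6 in WT 2, 1 in cKO 1 and 3 in cKO 2. Among tested genes with a position, the shares were 65.1%, 58.2%, 13.6% and 13.9%, although cKO 1 and cKO 2 held 55902 and 68317 peaks, against 76522 and 42265 in WT 1 and WT 2. *Capn2*, *Ctsc*, *Ctsd* and *Ctsl* had a peak there in both WT libraries and in no cKO library, a pattern found for 37.5% of tested genes. At *Ctsb* the cKO 1 peak lay 286 bp from the gene, outside the compared region. *Ctsh* had a peak of 349 bp in WT 2 and of 721 bp in cKO 2, and none at its ends in the other libraries.

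The 4 members without a compared region differed in kind. *Ctsz* had a peak over its start site in WT 1 alone. *Capn1* had a peak 62 bp from a start site in WT 1, and its cKO 2 peaks at a gene end lay at the far end. *Capns1* lies on the minus strand, so its higher-coordinate end is its 5′ end. The start site of its promoter printed above lies inside the gene. WT 1 had a peak over the 5′ end of *Capns1*, 3672 bp from that start site. WT 2 had a peak in the gene, 13 bp from the same start site, so that neither library repeated the peak of the other. The WT 2 peak came from an ATAC-seq library, which the labels do not tie to the RNA-seq library of the same number. *Ctss* had no peak at or in the gene in either WT library or in cKO 1. In cKO 2 it had 4 peaks in the body of the gene and 1 at its far end, 118 bp from the gene's end. Its RNA was between 136.8 and 457.4 TPM in all libraries, although no peak was called at its start.

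**Figure D5:**
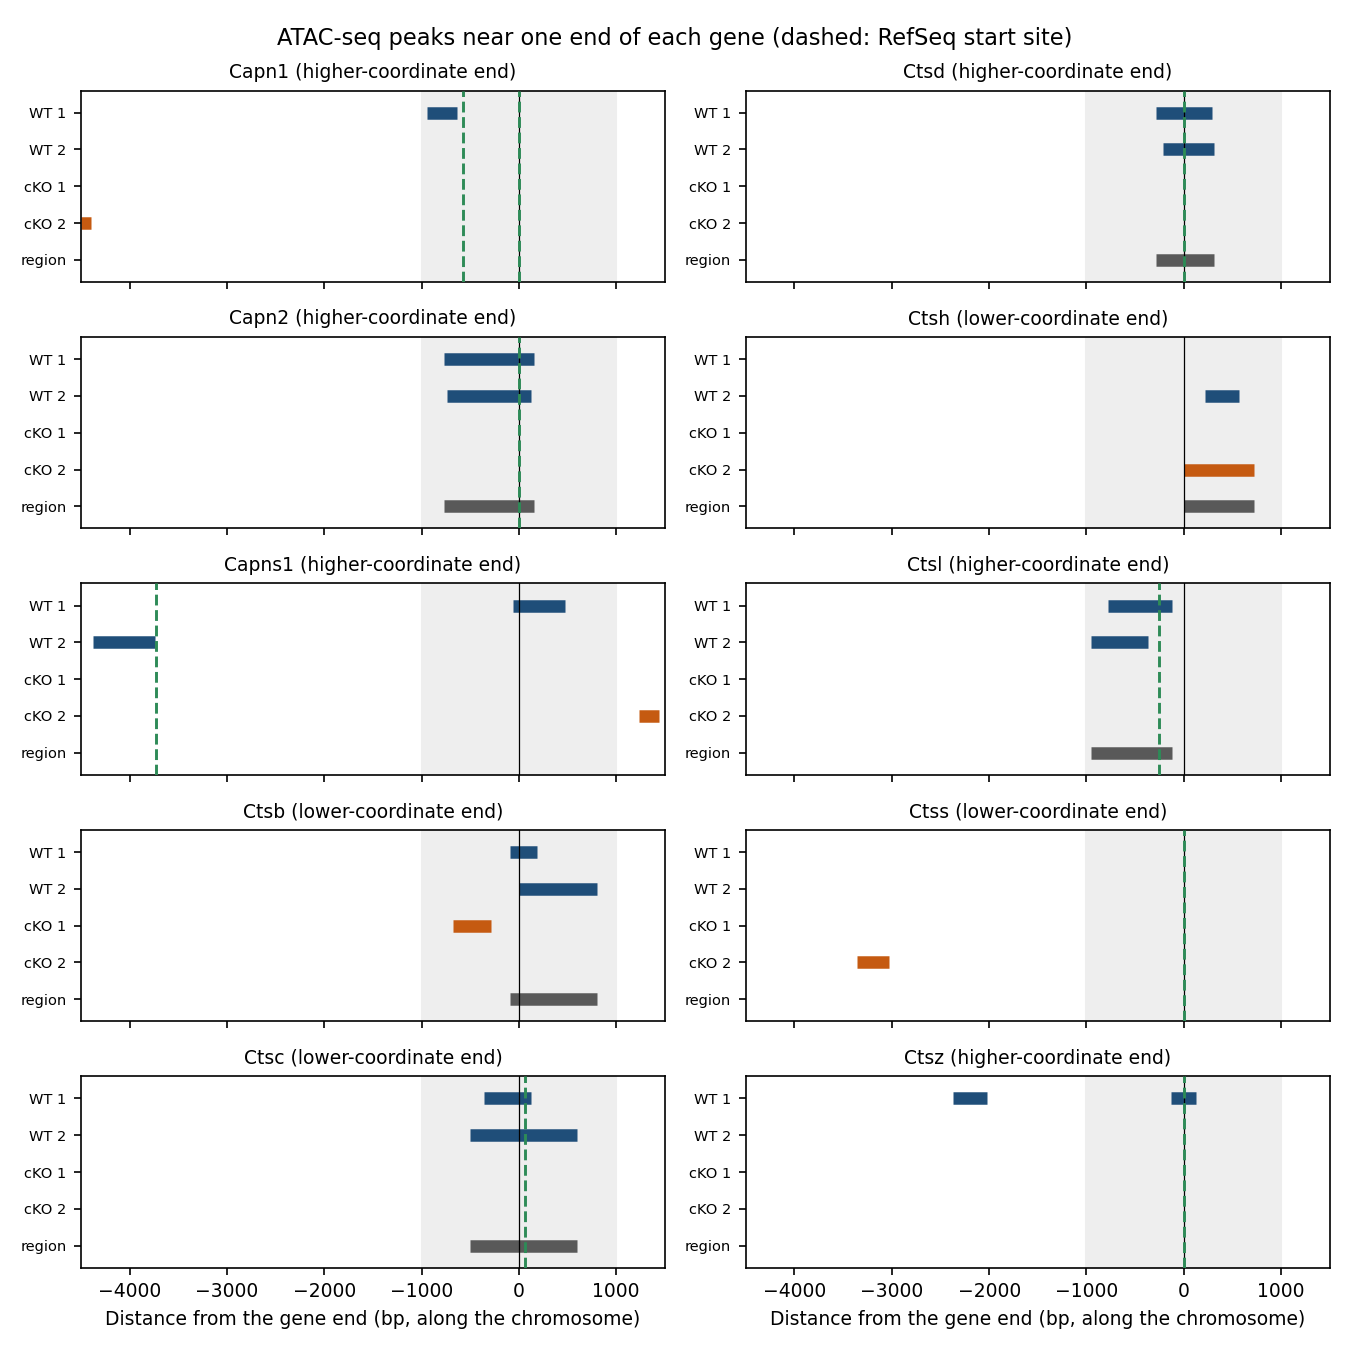
ATAC-seq peaks near 1 end of each of the 10 genes (the end nearest a RefSeq start site, or for *Ctsb* and *Ctsh* the end with the compared region), in bp from that gene end along the chromosome, for WT 1, WT 2, cKO 1 and cKO 2, with the compared region in grey. The shaded band spans 1000 bp on each side and dashed lines are RefSeq start sites; WT peaks sit at the start of *Capn2*, *Ctsc*, *Ctsd* and *Ctsl*, and no peak lies in the band at *Ctss*.

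RNA and chromatin can be set side by side for the 6 members with a region. *Capn2* and *Ctsc* had region differences of -2.05 and -1.99 with RNA log2 fold changes of -0.81 and -0.89. *Ctsd* and *Ctsl* had larger region differences, -2.86 and -2.33, with RNA log2 fold changes of 0.27 and 0.23. *Ctsh* had the smallest region difference, -0.16, with an RNA log2 fold change of -0.75. The order of the members by region difference was thus not their order by RNA difference. Over the related lists, the median region difference lay between -3.84 for the only region of the MHC class II genes and -2.11 for 3 regions of the inhibitors, and no granule protease had a region.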

How the data were processed

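RNA-seq was measured in 6 libraries and ATAC-seq in 4. The authors trimmed reads, quantified them with Salmon 1.0.0 and tximport on GENCODE (GRCm38), and deposited TPM per gene. For ATAC-seq they aligned with Bowtie2 2.3.5.1, called peaks per library (the labels name MACS2 2.2.5) and deposited log2 group values from DiffBind. Their deposited fold changes, p-values and FDR were not used. A count model could not be run on TPM. Groups came from the labels. Genes with at least 1 TPM in at least 3 of 6 libraries were kept and log2(TPM + 1) was compared with limma 3.58.1 in R 4.3.3 (empirical Bayes with a trend, two-sided, Benjamini-Hochberg over 17555 genes, threshold 0.05). Single members were also compared with an exact permutation test, two-sided. Deviations of same-numbered libraries from their group means had r = 0.334, 0.101 and 0.425 across genes. By the rule applied this pairs them, so a replicate block was run as an alternative. WT 1 with cKO 2 had r = 0.193, above the 0.101 of WT 2 with cKO 2. Gene ends, start sites and promoters came from RefSeq tables on GRCm38.p6, and printed positions count from 1. In simulated data of 17555 genes, 0 of 62 genes with a log2 change of 1 were recovered, 45.7% at 2 and 69.1% at 3.

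All members were named. From each list, up to 3 genes per direction with the largest change and no overlap were named, plus *Cast*, *Cst3*, *Cst7*, *Cstb*, *Lgmn* and *Tfeb*, and neighbours in profile of the 4 members with the largest change. Values of some marker genes are not reported here. Other genes named were chosen after their values were seen. The members and lists were chosen with earlier results of these data known. Python 3.11.15 with numpy 2.4.6, pandas 2.3.3, scipy 1.17.1 and matplotlib 3.10.9 was used. Alternatives were a pseudocount of 0.1, no filter, median of ratios scaling, a minimum mean of 5 TPM, no trend, a replicate block, leaving out each library, windows of 3000 bp, the start site alone, and at least 50% of a peak in the window.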

Additional observations from a re-analysis of the deposited data

How the results depend on the processing

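All 119 values of single members under the alternatives kept their direction and stayed above an adjusted p of 0.05, but a self-test that recovered none of the changes of 1 on the log2 scale limits what such p-values show. *Capn1* has no value at a mean TPM of at least 5. Of all genes, 4 instead of 1 were called higher without a trend. With the replicate block 1 gene instead of 0 was called lower, and 0 to 1 when single libraries were left out. Members lower at an unadjusted p below 0.05 numbered 4 with the replicate block and 1 to 4 when single libraries were left out (6 with all). Leaving out *Capn1*, added after seeing the data, gave 5, which became 3 without a trend, 3 with the replicate block and 1 to 3 when single libraries were left out. Members without overlap numbered 5 to 6 when single libraries were left out, as smaller groups overlap less. Genes of the related lists higher at an unadjusted p below 0.05 numbered 4 to 14 (12 with all). The replicate block changed no other call. No paired analysis was possible because only group values are compared in ATAC-seq. Members with a peak in cKO 1 numbered 2 with windows of 3000 bp and 0 with the start site alone, and those in cKO 2 numbered 0 with the start site alone. Peaks in both WT and no cKO library were found for 4 to 6 members when single libraries were left out. *Ctss* per summed myeloid markers had a log2 ratio of cKO over WT of 0.48 with all markers and -0.18 without the 4 most abundant, an alternative added after seeing the data. Depth is unknown for all libraries.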
